A study of Canis lupus familiaris with 17 samples.

Results

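Of the 17 tumours in the series, 7 were compared here, 4 taken 2 days after a second dose of intratumoral IL-2 and IL-12 and 3 taken 2 days after a first dose. They are the tumours that the labels place in these 2 groups, with no selection among them. All were soft tissue sarcomas that had arisen in client-owned pet dogs, each from a different dog, so every difference below is between animals. The second-dose tumours had received IL-2 and IL-12, both fused to a collagen-binding protein, on day 0 and day 6 and were excised on day 8. The first-dose tumours had received the same agents on day 0 and were excised on day 2. Second-dose replicates A, B and C were peripheral nerve sheath tumours and replicate D was a fibrosarcoma. First-dose replicates A and C were peripheral nerve sheath tumours and replicate B was a myxosarcoma. The levels around the comparison come from 3 tumours excised on day 8 after 1 dose on day 0 and from 7 archived sarcomas with no treatment. Day 8 replicate A and untreated replicates A, C, D and E were perivascular wall tumours, a type absent from the 7 compared. The other day 8 and untreated tumours were peripheral nerve sheath tumours. Levels set beside these groups thus differ in part in tumour type as well as in treatment. Dose number went with the time since the first dose (8 days against 2 days), and the 2 cannot be told apart here. The authors' normalized values carry a factor per probe in the second-dose and untreated columns and in none of the first-dose or day 8 columns, and what it stands for is not given in the sources used here. Any difference in processing that it marks goes with the dose groups and cannot be told apart from dose number.

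IL-2 drives the growth of T cells and NK cells through receptors that signal to STAT5, and IL-12 acts on the same cells through STAT4 to make them release interferon-gamma. Interferon-gamma in turn acts through IRF1, among other factors, in tumour, stromal and myeloid cells, where it raises antigen presentation, the chemokines CXCL10 and CXCL11, the checkpoint ligand CD274 (PD-L1) and the tryptophan-degrading enzyme IDO1. Fusion to a collagen-binding protein is meant to hold both cytokines in the injected tumour.

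The RNA came from scrolls of fixed, paraffin-embedded tissue. It was hybridized to the immuno-oncology probe set that nCounter sells for dogs, in which each bound probe carries a colour barcode and is counted singly, with no amplification step. Values below are normalized counts, that is, each raw count scaled by the geometric mean of the housekeeping probes of its tumour. A tissue scroll mixes tumour, stroma, vessels and immune cells, so fewer cells of a type and less RNA per cell cannot be told apart. Endogenous counts totalled 1752729, 1016527, 1458022 and 205118 in second-dose replicates A to D, against 1232818, 1089862 and 126997 in first-dose replicates A to C. The housekeeping geometric mean was 55.1 to 643 raw counts in the second-dose group and 61.9 to 280.8 in the first-dose group, against 526 to 709 in the day 8 group and 489 to 686 in untreated tumours. The ranges of the dose groups overlapped, and a two-sided exact permutation test of 4 against 3 tumours cannot give a p under 0.0571, so none is given. Second-dose replicate D and first-dose replicate C had the lowest endogenous and housekeeping counts and are called the shallow libraries below. In them 1 raw count was worth 8.78 normalized counts in D and 7.81 in C. The background, set at the mean plus 2 SD of the negative control probes, stood at 338 normalized counts in second-dose D and 163 in first-dose C, against 17.5 to 66.1 in the other 5 tumours. Of the 20 housekeeping probes, 12 passed background in second-dose D and 17 in first-dose C, against 18 to 19 in the other 5. The scale of second-dose D thus rests in part on housekeeping probes at background. Of the 724 tested genes, 394 lay above background in all 7 tumours. The mesenchymal genes VIM, FN1 and COL3A1 were above background in all 7 tumours. Among Schwann cell and neural markers, S100B was above background in 6 of 7, GFAP in 5 of 7, NCAM1 in 2 of 7 and SOX10 in 0 of 7.

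No gene passed the test in either direction. In both groups the interferon-gamma targets IDO1, CXCL10 and IRF1 stood above their untreated range in every tumour. Wide contrasts lay among the second-dose tumours themselves, in a split named after the values were seen. Replicates B and D had higher IFNG, GZMB and S100A9 than every first-dose tumour. Replicates A and C had IFNG and S100A9 below every first-dose tumour. The IFNG value of first-dose C, 164, lay only just above the background of that tumour, 163. Of 724 tested genes, 0 were called higher (0%) and 0 lower (0%) after the second dose at an adjusted p under 0.05 (edgeR quasi-likelihood test, Benjamini-Hochberg). At an unadjusted p under 0.05, 4 genes (0.552%) had higher and 84 (11.6%) lower values after the second dose. The values of the 2 groups did not overlap for 0 genes (0%) in the higher direction and for 36 genes (4.97%) in the lower.

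The median difference over all 724 genes was -0.19 log2 with housekeeping scaling and 0.06 with TMM scaling, and the split of unadjusted calls was 32 higher to 52 lower with TMM. DESeq2 called 1 gene higher and 27 lower. The counts also turned on single tumours: without first-dose replicate A, edgeR called 1 gene higher and 27 lower, without first-dose replicate B 0 and 3, and without second-dose replicate B 0 and 1. Leaving out any of the other 4 tumours gave 0 calls. Without first-dose replicate C the 84 lower genes became 31. The 4 higher genes became 18, 1 and 9 without first-dose A, B and C, and 9, 7 and 8 without second-dose A, B and C. The 36 genes without overlap became 72, 64 and 76 without first-dose A, B and C, and 64 without second-dose B or D. The 95% interval of a gene's difference had a median half-width of 1.35 log2, and it was under 1 log2 for 152 of 724 genes. A missed threshold therefore does not show that the groups were alike for a gene. Of the 91 genes named by the rule, 33 changed the sign of their difference when 1 tumour was left out.

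**Figure D1:**
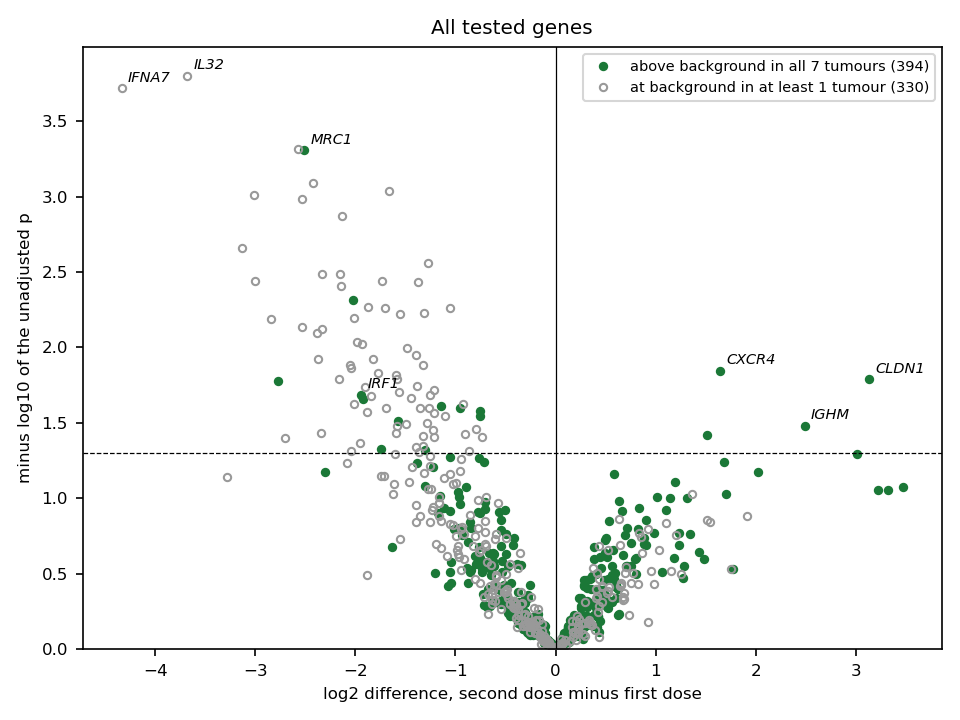
Each point is 1 of 724 tested genes, with the log2 difference (second dose minus first dose) on the horizontal axis and minus log10 of the unadjusted p on the vertical axis. The dashed line marks an unadjusted p of 0.05. Filled points are the 394 genes above background in all 7 tumours, and most points high on the left are open, that is, at background in at least 1 tumour.

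Interferon-gamma and its targets were described first, since they are the readout of IL-12. IFNG had 36.8, 1756, 23.9 and 1686 normalized counts in second-dose replicates A to D, against 726, 351 and 164 in first-dose replicates A to C. Both groups lay above the day 8 tumours (7.51 to 14.7) and the untreated tumours (4.57 to 10.8), in which IFNG was above background in 0 of 10. The highest of the 7 were second-dose B and D and the lowest second-dose A and C, so the first-dose values fell inside the second-dose range. The value of first-dose C was only just above its background of 163. The difference was 1.06 log2 (SE 1.01, 95% interval -1.07 to 3.19, adjusted p = 0.778), and it ran from -0.52 to 1.74 over the alternative settings.

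IDO1 had 2163, 32710.2, 468 and 23723 normalized counts after the second dose, against 70905, 12749.9 and 18197 after the first. CXCL10, a chemokine that draws CXCR3-bearing T cells, had 12608, 41729.6, 1514 and 59114 after the second dose, against 182014, 71345 and 14901 after the first. Both genes overlapped between the groups, with second-dose C lowest and first-dose A highest, and every treated value stood above the untreated maximum of 118 for IDO1 and 478 for CXCL10. The differences were -1.20 log2 (SE 1.15) for IDO1 and -1.64 log2 (SE 1.26) for CXCL10, with adjusted p = 0.778 and 0.693. GBP5, an interferon-induced GTPase, also had B and D far above A and C after the second dose, with 421, 5939, 99.4 and 5312, against 5461, 3104 and 945 after the first dose.

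IRF1, a transcription factor induced by interferon-gamma, was the member of this list with the lowest value of the difference. It had 1476, 9541, 1215 and 6787 normalized counts after the second dose, against 12037, 18349 and 24320.1 after the first. Every second-dose tumour lay below every first-dose tumour, and all 7 lay above the untreated maximum of 974. The difference was -1.94 log2 (SE 0.76, 95% interval -3.54 to -0.34) but did not pass the test (adjusted p = 0.299). The checkpoint ligand CD274 and the feedback inhibitor SOCS1 had differences of -0.20 and -0.55 log2, with adjusted p = 0.948 and 0.831. CXCL11 had -1.28 log2 (SE 0.70, adjusted p = 0.520).

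Of the 21 genes of the interferon-gamma response, 0 were called, 0 had a higher and 3 a lower value at an unadjusted p under 0.05, and 2 did not overlap between groups. Over all tested genes the shares were 11.6% lower at that threshold and 4.97% without overlap in the lower direction. The counts of every list below are read beside these shares. The median difference of the 21 genes was -0.75 log2, beside -0.19 over all tested genes, and -0.54 beside 0.06 with TMM. Measured from the untreated mean, the 21 genes averaged 2.66, 4.85, 1.71 and 4.59 log2 in second-dose A to D, against 5.09, 4.64 and 3.81 in first-dose A to C. All 7 tumours were thus above the untreated mean, and second-dose A and C were the lowest. Of the 13 type I interferon response genes, 0 were called in either direction, 2 did not overlap in the lower direction, and the median was -0.70 log2 (-0.35 with TMM). DDX58, which encodes the viral RNA sensor RIG-I, had -1.11 log2 and the receptor subunit IFNAR1 0.69 log2.

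**Figure D2:**
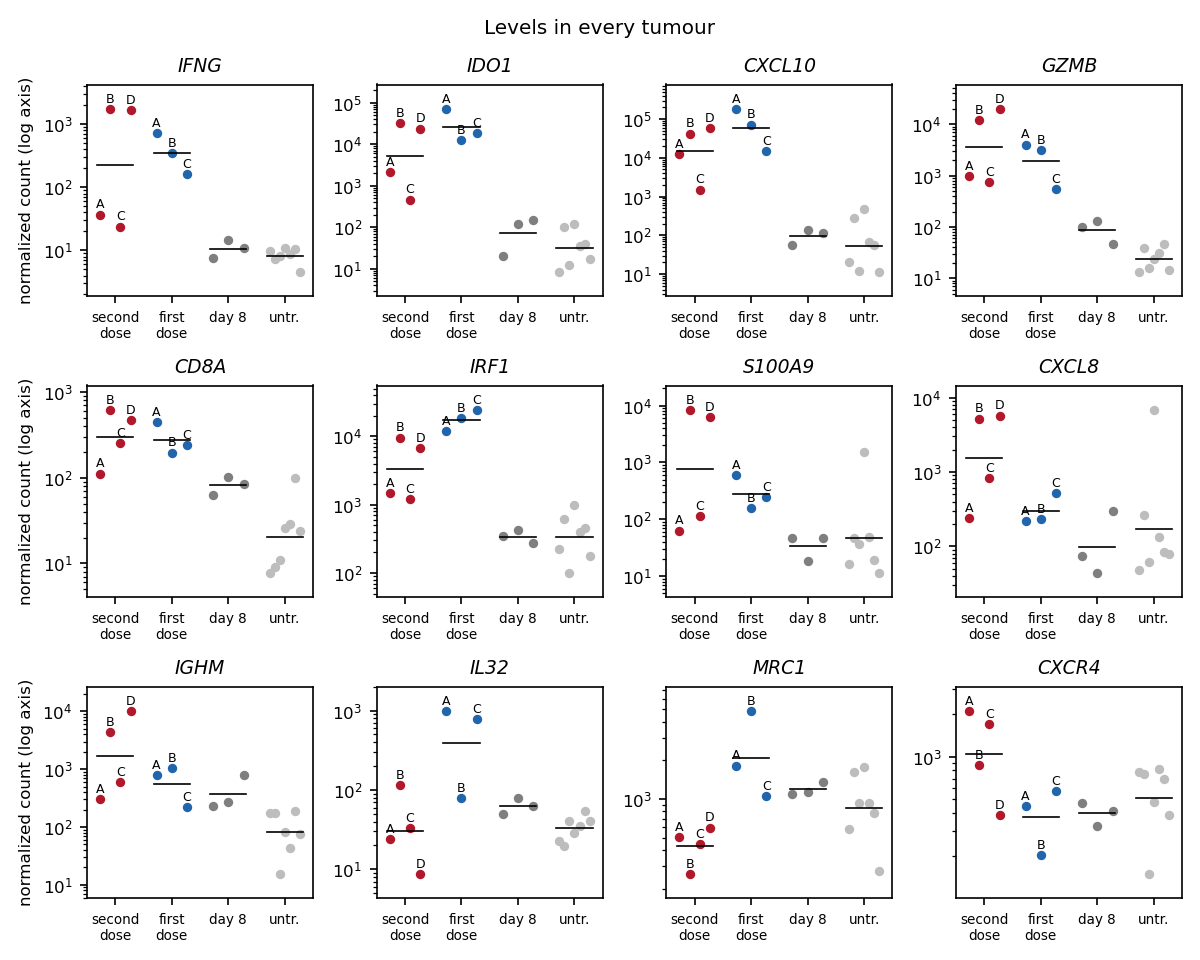
Normalized counts on a log axis for 12 genes in every tumour, in columns for the second dose, the first dose, day 8 after 1 dose and untreated, with replicate letters beside the points of the first 2 columns and a bar at the geometric mean of each column. In IFNG, GZMB, S100A9 and CXCL8 second-dose B and D stand above the first-dose tumours, while second-dose A and C stand below them in IFNG and S100A9. MRC1 and IRF1 have no overlap between the second and the first dose.

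Antigen presentation genes also had their higher second-dose values in B and D. Among 11 MHC class I genes, 0 were called, 2 had a lower value at an unadjusted p under 0.05, 1 did not overlap, and the median difference was -0.72 log2 (-0.52 with TMM). The class I heavy chain gene DLA88 had 12769, 26849, 8822 and 31949.5 normalized counts after the second dose, against 34843, 26004 and 8364 after the first. The immunoproteasome subunit PSMB8 had 762, 5195, 383 and 2300.3 after the second dose, against 4552, 4859 and 12355 after the first. Their differences were -0.20 log2 (adjusted p = 0.948) and -1.75 log2 (SE 0.82, adjusted p = 0.404), and in both genes second-dose A and C were among the lowest values.

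Among 10 MHC class II genes, 0 were called and 0 passed even the unadjusted threshold, with a median of -0.05 log2 that became 0.07 with TMM. DLA-DMB, which helps load peptides, had -1.18 log2 (SE 0.73). DLA-DQB1 had 9902, 40272, 5172 and 39904 normalized counts after the second dose, against 14884, 28083 and 15.6 after the first. The value of first-dose C was 2 raw counts, below its background, while DLA-DRA, a class II gene picked out after its values were seen, had 9497 in the same tumour. Its difference of 0.73 log2 had the wide interval of -2.08 to 3.55.

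Genes of the IL-2 and IL-12 pathway, 30 in number, had 0 calls. At an unadjusted p under 0.05, 0 had higher and 2 lower values, 2 did not overlap in the lower direction, and the median of -0.12 log2 became 0.21 with TMM. IL2RA, the inducible high-affinity IL-2 receptor subunit, had 160.2, 719, 84.3 and 571 normalized counts after the second dose, against 741, 374 and 273 after the first. IL2RB, the signalling subunit shared with IL-15, had 214, 1053, 205 and 1141 after the second dose, against 653, 646 and 414 after the first. In both genes second-dose B and D were high, A and C were the lowest, and the groups overlapped. The differences were -0.29 log2 (SE 0.97) for IL2RA and 0.18 log2 (SE 0.59) for IL2RB, both with adjusted p = 0.948.

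The IL-12 receptor subunits IL12RB1 and IL12RB2 had differences of -0.17 log2 (95% interval -1.55 to 1.20) and 0.69 log2 (-1.25 to 2.62). STAT4, the IL-12 signal transducer, had 196, 147, 427 and 167 normalized counts after the second dose, against 168, 138 and 148 after the first. The value of second-dose C lay inside the untreated range of 205 to 433, and the other 6 lay below it. In second-dose D and first-dose C, STAT4 was below the background of the tumour (338 and 163), so the true level there is not known. IL21, a T cell cytokine, had the lowest difference in the list at -3.13 log2 (adjusted p = 0.160). That value rested on first-dose C (383), since IL21 was above background in 1 of 4 second-dose and 1 of 3 first-dose tumours.

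T cell and killer cell genes were measured next. Of 20 T cell genes 0 were called in either direction at either threshold, and the median was 0.28 log2 (0.48 with TMM). CD3E, part of the T cell receptor complex, had 192, 360.4, 291 and 764 normalized counts after the second dose, against 498, 305 and 133 after the first, with the value of first-dose C below background. CD8A, the cytotoxic T cell coreceptor, had 111, 618, 254 and 474 after the second dose, against 449, 196 and 242 after the first. Both overlapped between the groups, and their differences were 0.34 log2 (SE 0.71) and 0.29 log2 (SE 0.77), each with adjusted p = 0.942. CD4, the helper T cell coreceptor that canine neutrophils also carry, had 85.0, 1652, 161 and 562 after the second dose, against 57.0, 84.4 and 328 after the first. Its 2 highest values were again second-dose B and D, and its difference of 2.03 log2 (SE 1.03) had adjusted p = 0.465.

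Among 13 cytotoxic effector genes 0 were called and 0 passed the unadjusted threshold, with a median of 0.47 log2 (0.65 with TMM). GZMB, the granule protease granzyme B, had 993, 12092, 739 and 19895 normalized counts after the second dose, against 4008, 3174 and 555 after the first. Replicates B and D of the second dose were above every first-dose tumour, and second-dose A and C lay between first-dose C and first-dose B. All 7 were above the day 8 maximum of 133 and the untreated maximum of 47.5. The difference was 1.71 log2 (SE 0.96, 95% interval -0.32 to 3.73, adjusted p = 0.537), and it was 0.36 log2 without both shallow libraries. Granzymes A and K (GZMA, GZMK), perforin (PRF1), the granule membrane gene NKG7 and the effector transcription factors EOMES and TBX21 had differences between 0.22 and 0.58 log2, with adjusted p between 0.807 and 0.942. KLRK1, which encodes the activating receptor NKG2D, had -0.84 log2, a value set by first-dose C (3436, against 372 to 1031 in the other 6 tumours). Without first-dose C it was 0.86 log2.

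Of 11 NK cell genes 0 were called, 1 had a lower value at an unadjusted p under 0.05 and did not overlap, and the median was -0.21 log2 (-0.05 with TMM). That gene was NCR3, an activating receptor, with 29.3, 40.8, 21.5 and 26.3 normalized counts after the second dose, against 48.4, 79.2 and 422 after the first. The difference was -2.57 log2 (SE 0.60, adjusted p = 0.0890), but NCR3 was above background in only 2 of 4 second-dose tumours, and without first-dose C it was -1.10 log2. NCR1, which encodes NKp46, had 36.1, 235, 14.3 and 237 after the second dose, against 142, 105 and 195 after the first. The groups overlapped, with -0.21 log2, and the values of second-dose C and D were below background. CD160, carried by NK and cytotoxic T cells, had 0.53 log2 (adjusted p = 0.708). It was above background in 3 of 4 second-dose and 1 of 3 first-dose tumours. NCAM1 had 1.55 log2 (adjusted p = 0.613). NCAM1 was above background in 0 of 3 first-dose tumours, its value rested on second-dose A (517, against 22.5 to 133 in the other 6), and without that tumour it was -0.49 log2.

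Checkpoint and regulatory genes, 25 in number, had 0 calls, with 4 lower at an unadjusted p under 0.05 and a median of -0.10 log2 that became 0.06 with TMM. PDCD1, which encodes the checkpoint receptor PD-1, had 25.6, 68.5, 38.2 and 87.8 normalized counts after the second dose, against 63.9, 70.6 and 523 after the first. The difference of -2.01 log2 (SE 0.65, adjusted p = 0.187) rested on first-dose C, and it was -0.36 log2 without that tumour. CTLA4, which restrains costimulation, had 40.6, 359, 63.6 and 606 after the second dose, against 121, 152 and 383 after the first, with 0.28 log2 (95% interval -1.26 to 1.82). LAG3 and HAVCR2, receptors of exhausted T cells, had -0.50 and 0.03 log2, and IL10 had 0.02 log2 (SE 0.48). LAG3, HAVCR2 and IL10 were below background in second-dose D. Each changed sign when 1 tumour was left out, with LAG3 running from -0.88 to 0.32 log2. FOXP3, the regulatory T cell factor, was above background in 2 of 4 second-dose and 1 of 3 first-dose tumours. Its difference of -1.33 log2 became 0.0013 without first-dose C. TNFRSF4 (OX40) and EBI3, a subunit of IL-27 and IL-35, were the lowest and highest of the list with -2.06 and 0.71 log2. TNFRSF4 was above background in 2 of 4 second-dose and 1 of 3 first-dose tumours and was -0.76 log2 without first-dose C, and EBI3 was 0.02 log2 without second-dose B.

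**Figure D3:**
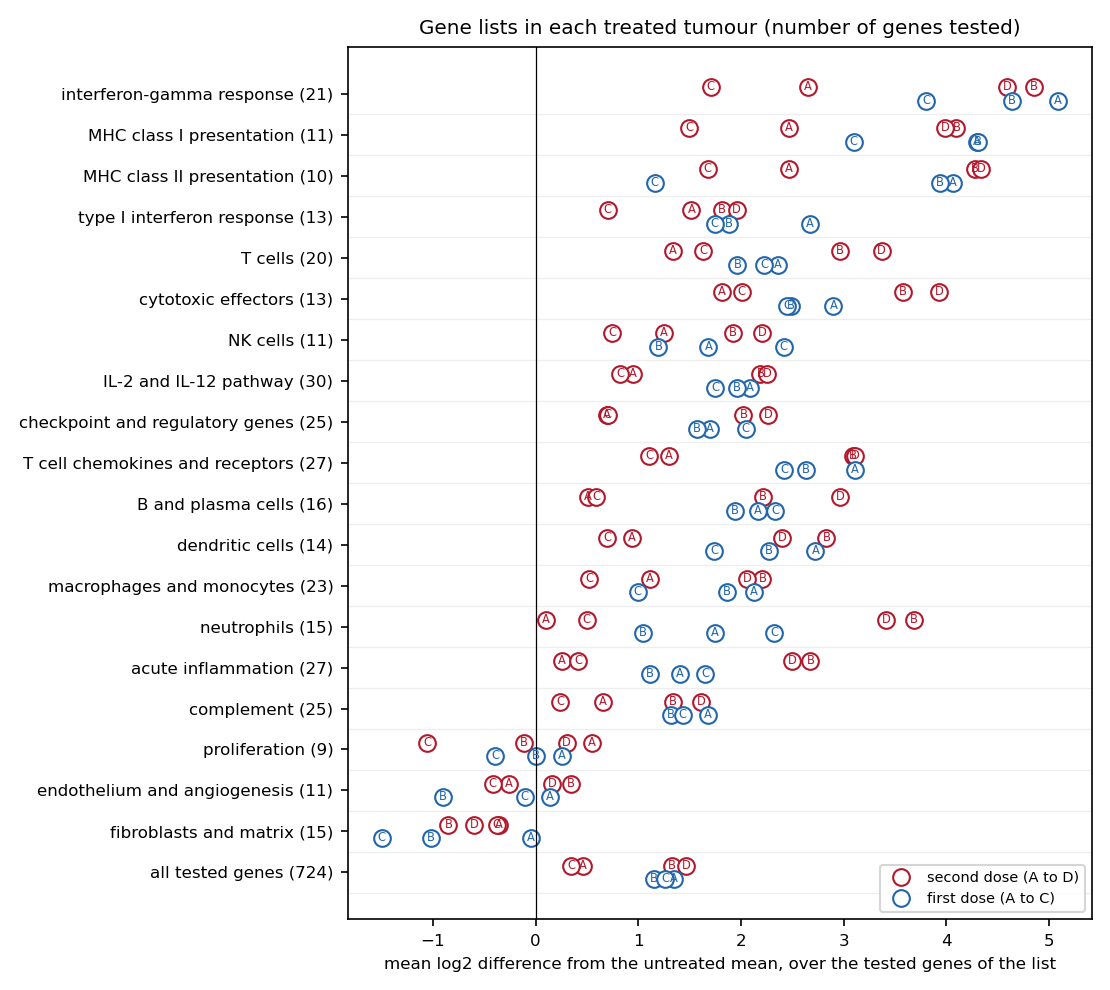
For 19 gene lists and all tested genes, the horizontal axis gives the mean log2 difference of each treated tumour from the untreated mean, with 1 lettered circle per tumour and the second dose drawn above the first. Second-dose B and D lie near or above the first-dose tumours in most immune lists, second-dose A and C lie to their left, and over all tested genes the same split is seen at 1.32 and 1.46 against 0.46 and 0.34.

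Neutrophil and acute inflammation genes were spread widely over the second-dose tumours, with a median range of 3.69 log2 over the 15 neutrophil genes. S100A8, a calcium-binding protein of neutrophils and monocytes, had 375, 17530.0, 356 and 17858 normalized counts after the second dose, against 2094, 281 and 968 after the first. Its partner S100A9 had 63.2, 8356, 113 and 6207 after the second dose, against 593, 157 and 242 after the first. The neutrophil chemoattractant CXCL8 had 238, 5215, 834 and 5707 after the second dose, against 216, 231 and 523 after the first. In the 3 genes second-dose B and D were far above all first-dose tumours, and second-dose A and C were within or below the first-dose range in S100A8 and S100A9.

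The differences were 3.02 log2 (SE 1.44) for S100A8, 3.47 log2 (SE 1.89) for S100A9 and 3.22 log2 (SE 1.78) for CXCL8, with adjusted p = 0.410, 0.514 and 0.522. In untreated tumours the highest single values of S100A8, S100A9 and CXCL8 were 4006, 1531 and 6816, so high levels were seen without treatment too. Of 15 neutrophil genes 0 were called and 0 passed the unadjusted threshold, with a median of 0.40 log2 (0.37 with TMM). Their mean above untreated was 0.10, 3.68, 0.50 and 3.41 log2 in second-dose A to D, against 1.75, 1.04 and 2.32 in first-dose A to C. MMP9, a protease of neutrophil granules, was the lowest of the list at -1.89 log2 (SE 1.85). Of 27 acute inflammation genes 0 were called and 1 had a lower value at the unadjusted threshold, with a median of 0.22 log2 (0.32 with TMM). TNF had 62.4, 539.8, 47.7 and 439 after the second dose, against 202, 227 and 351 after the first, and a difference of 0.06 log2. IL1A had -1.02 log2 (adjusted p = 0.628), and 0.35 log2 without first-dose C, where it was highest.

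Macrophage and monocyte genes, 23 in number, had 0 calls and a median difference of -0.09 log2 that became 0.22 with TMM. At the unadjusted threshold 1 gene had a lower value, and it was also the 1 without overlap. This was MRC1, which encodes the mannose receptor CD206 of tissue macrophages. MRC1 had 506, 261, 444 and 597 normalized counts after the second dose, against 1816, 4841 and 1047 after the first. Every second-dose tumour lay below every first-dose tumour, and second-dose B lay just under the untreated range of 273 to 1785. First-dose A and B lay above that range. The difference was -2.51 log2 (SE 0.58, 95% interval -3.74 to -1.28) with an adjusted p of 0.0890, which did not pass the threshold of 0.05. It was called without first-dose A (-2.71 log2, adjusted p = 0.0269) and by DESeq2 (adjusted p = 0.00200). It ran from -3.04 to -1.67 log2 over the alternative settings. In the edgeR fit of the 7 compared tumours alone, the adjusted p reached 0.806.

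The other macrophage genes overlapped. CD68 had 1105, 3786, 989 and 2125 normalized counts after the second dose, against 2009, 1373 and 945 after the first. CSF1R, the receptor for macrophage colony-stimulating factor, had 1141, 2953, 1002 and 3055 after the second dose, against 2842, 3494 and 1398 after the first. CD163, a scavenger receptor, had 813, 532, 462 and 1528 after the second dose, against 638, 1113 and 234 after the first. Their differences were 0.47, -0.34 and 0.32 log2, with intervals that held 0, and the endotoxin coreceptor CD14 was the highest of the list at 0.75 log2 (adjusted p = 0.763). Of 14 dendritic cell genes 0 were called or passed the unadjusted threshold, with a median of -0.19 log2 (-0.04 with TMM). CCR7, which guides dendritic cells to lymph nodes, had -1.75 log2 and ITGAE (CD103) 1.91 log2. Of 5 mast cell and eosinophil genes 0 were called, with a median of -0.57 log2 (-0.50 with TMM), MS4A2 at -0.72 log2 and KIT at 0.03 log2.

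B and plasma cell genes, 16 in number, had 0 calls, with 1 higher and 2 lower at the unadjusted threshold and a median of -0.62 log2 (-0.45 with TMM). IGHM, the heavy chain of IgM, had 302, 4300.1, 601 and 10141 normalized counts after the second dose, against 781, 1033 and 219 after the first. The highest values were those of second-dose B and D, while A and C lay between first-dose C and first-dose A. The difference of 2.49 log2 (SE 1.07, 95% interval 0.23 to 4.75, adjusted p = 0.343) was 0.93 log2 without both shallow libraries. The B cell genes MS4A1 (CD20) and PAX5 had -1.35 and -1.83 log2, but MS4A1 was above background in 0 of 4 second-dose and 1 of 3 first-dose tumours, and PAX5 in 1 of 4 and 1 of 3.

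Among 27 T cell chemokines and receptors, 0 were called, 1 had a higher and 4 a lower value at the unadjusted threshold, 1 did not overlap in the lower direction, and the median was 0.10 log2 (0.13 with TMM). CXCR4, the receptor for CXCL12 on leukocytes and tumour cells, had the lowest p of any gene with a higher second-dose value. It had 2101, 871, 1702 and 386 normalized counts after the second dose, against 449, 203 and 570.1 after the first. Here second-dose A and C were the highest, the reverse of the interferon genes, and D lay inside the first-dose range. The difference was 1.65 log2 (SE 0.60, 95% interval 0.37 to 2.92, adjusted p = 0.272) and 1.29 to 2.28 log2 over the alternative settings. CCL21, a lymph node chemokine, had 15.04, 352, 27.03 and 474 after the second dose, against 715, 3236 and 133 after the first, and -2.70 log2 (adjusted p = 0.363). CCL21 was below background in second-dose A and first-dose C. Its difference ran from -3.39 to -1.025 log2 when 1 tumour was left out.

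The other genes with a higher value at the unadjusted threshold were CLDN1, IGHM and NRP1, and all 4 were above background in all 7 tumours. CLDN1, a tight junction protein, had 3911, 639, 13571 and 413 normalized counts after the second dose, against 912, 102 and 578 after the first. Only second-dose A and C lay inside the untreated range of 1242 to 16498, and the other 5 tumours lay below it. NRP1, a coreceptor for VEGF and semaphorins, had 7922, 1486, 2871 and 1449 after the second dose, against 1738, 1259 and 594 after the first. CLDN1 had 3.13 log2 (SE 1.17, adjusted p = 0.273) and NRP1 1.52 log2 (SE 0.67, adjusted p = 0.362), and CLDN1 was called by DESeq2 (adjusted p = 0.0365). The next lowest p values in this direction, beside S100A8, S100A9 and CD4, were those of S100A4, the tumour suppressor APC and S100A10, with 1.68, 0.59 and 1.20 log2. S100A4 was the 1 higher gene called without first-dose A (adjusted p = 0.0488).

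In the lower direction the lowest adjusted p was shared by IL32 and IFNA7. IL32, a cytokine made by activated T and NK cells in humans, had 24.1, 116, 33.4 and 8.78 normalized counts after the second dose, against 988, 79.2 and 773 after the first. The groups overlapped through second-dose B and first-dose B. First-dose A and C stood far above the day 8 range of 49.1 to 79.4, and the value of second-dose D, 1 raw count, was below its background. The difference was -3.68 log2 (SE 0.76, 95% interval -5.29 to -2.08, adjusted p = 0.0688). It lay between -4.64 and -3.14 log2 over the alternative settings. The adjusted p ran from 4.67e-05 (DESeq2) to 0.806 (edgeR on the 7 compared tumours alone). IL32 was called without first-dose A (adjusted p = 0.0402), without first-dose B (0.00735) and without second-dose B (0.0157). DESeq2, the fit with sarcoma type and the fit without a filter on low counts also called it.

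IFNA7, a type I interferon gene, had 18.8, 22.8, 27.8 and 35.1 normalized counts after the second dose, against 19.0, 129 and 1406 after the first. Only first-dose B and C stood apart, and the difference of -4.33 log2 (SE 0.91, adjusted p = 0.0688) became -1.56 log2 without first-dose C. IFNA7 belongs to a family of near-identical genes, so probe and gene cannot be matched with certainty. The remaining named genes in this direction were LOC111094769, NPNT, LOC102156626, HAMP and AIRE, with differences of -1.66 to -3.01 log2 and adjusted p of 0.0935 to 0.109. Each had its highest value in first-dose C, from 148 to 242 normalized counts. In that tumour the background was 163, and second-dose D was below background for all 5.

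First-dose C and second-dose D ran through the whole set of 84 lower genes. First-dose C was the highest of the 7 tumours for 68 of the 84 (81.0%), against 170 of all 724 tested genes (23.5%). Second-dose D was below background for 71 of the 84 (84.5%), against 308 of all 724 (42.5%), and 12 of the 84 were above background in all 7 tumours. Among the 36 genes whose groups did not overlap, 9 were above background in all 7, all with lower second-dose values under housekeeping scaling. With TMM scaling 6 of the 9 overlapped, and MRC1, IRF1 and PSMB10 did not. The 9 were MRC1, IRF1, IRF3, PSMB10, STAT2, EPSTI1, IL15RA, C1S and MIF. Apart from MRC1 and IRF1, they are named after their values were seen. STAT2 and IRF3 serve the type I interferon pathway, PSMB10 is an immunoproteasome subunit, EPSTI1 is interferon-induced, IL15RA presents IL-15, C1S is a complement protease and MIF is a cytokine. Their adjusted p values were 0.0890 to 0.647. Without both shallow libraries 51 genes had lower values at an unadjusted p under 0.05, and 0 were called.

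**Figure D4:**
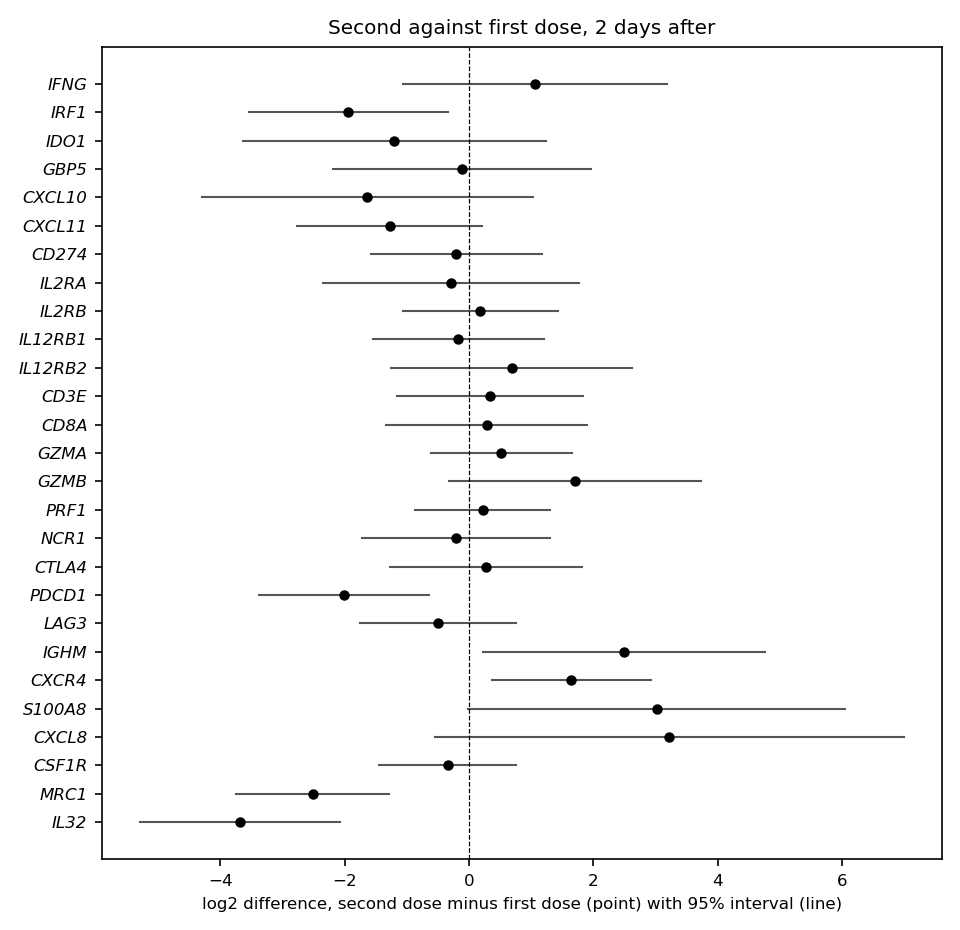
For 27 named genes, points give the log2 difference (second dose minus first dose, horizontal axis) from the edgeR model and lines its 95% interval. Intervals of the interferon, T cell and granzyme genes hold 0 except IRF1, and those of PDCD1, IGHM, CXCR4, MRC1 and IL32 do not hold 0 before adjustment over all genes.

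Stromal and other lists had 0 calls as well. Of 15 fibroblast and matrix genes 0 passed the unadjusted threshold, with a median of 0.45 log2 (0.87 with TMM), S100A4 at 1.68 and MMP9 at -1.89 log2. Of 11 endothelial and angiogenesis genes 1 had a higher value, with a median of 0.22 log2 (0.49 with TMM) and VEGFA at 0.83 log2. THBD, which encodes thrombomodulin of endothelium, had 2768, 881, 921 and 536 normalized counts after the second dose, against 836, 399.6 and 17759.7 after the first. Its -2.31 log2 became 1.05 log2 without first-dose C. The pericyte markers PDGFRB and MCAM had -0.73 and -0.20 log2, with a median of -0.47 log2 (-0.07 with TMM), and PDGFRB was 0.19 log2 without first-dose B.

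Of 25 complement genes 4 had a lower value at the unadjusted threshold and 1 did not overlap, with a median of -0.55 log2 (-0.29 with TMM), C8A at -1.94 and the complement regulator CD55 at 1.28 log2. C8A was above background in 1 of 4 second-dose and 1 of 3 first-dose tumours and was -0.28 log2 without first-dose C, and CD55 was 0.52 log2 without second-dose A. Of 9 proliferation genes 1 did not overlap in the lower direction, and the median was 0.19 log2 (0.54 with TMM). The proliferation marker MKI67 had 313, 497, 66.8 and 658 normalized counts after the second dose, against 465, 359.95 and 54.7 after the first, and 0.35 log2. The MKI67 value of first-dose C was below background, and the difference ran from -0.12 to 0.84 log2 when 1 tumour was left out. Cyclin D1 (CCND1) had 0.60 log2, the highest of the list. Of 12 apoptosis genes 1 did not overlap in the lower direction, with a median of -0.19 log2 that became 0.12 with TMM, the initiator caspase CASP8 lowest and the adaptor FADD highest at 0.31 log2. The 4 hypoxia and glycolysis genes had a median of 0.30 log2 (0.55 with TMM), with VEGFA highest and NDRG1 lowest at 0.22 log2.

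Among 6 Schwann cell and neural genes, 1 had a lower value at the unadjusted threshold and 1 did not overlap, with a median of -0.47 log2 (-0.42 with TMM) and GFAP lowest at -1.73 log2, or -0.70 log2 without first-dose C. Among 5 skin, fat and skeletal muscle genes, 1 had a higher value, CLDN1, the median was 0.29 log2 (0.43 with TMM), and EPCAM was lowest at -0.69 log2. In these lists too, the counts are read beside the shares over all tested genes, 0.552% higher, 11.6% lower and 4.97% without overlap in the lower direction.

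The second-dose tumours were also compared over the whole panel. Across 724 tested genes, the log2 levels of second-dose B and D correlated at r = 0.946 and those of A and C at r = 0.931. The other 4 second-dose pairs had r between 0.746 and 0.796. With the first-dose tumours, second-dose A to D correlated at 0.877, 0.907, 0.821 and 0.898 for first-dose A, at 0.871, 0.851, 0.823 and 0.847 for B, and at 0.742, 0.681, 0.733 and 0.680 for C. Neither second-dose pair was thus the nearer to all 3 first-dose tumours. These are correlations across genes, which are not independent replicates, and all tumours share the same probes. On the 394 genes above background in all 7 tumours, B and D had r = 0.943, A and C r = 0.913, and the other second-dose pairs 0.582 to 0.677. By label, second-dose B, like A and C, was a peripheral nerve sheath tumour and D a fibrosarcoma. The part of tumour type in the split was not tested.

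Library measures were also set beside this split. The housekeeping geometric means were 297 and 55.1 raw counts in second-dose B and D, against 643 in A and 608 in C. The positive control geometric means were 311 and 69.8 in B and D, against 965 in A and 1243 in C. In first-dose A to C they were 354, 1955 and 2235, so first-dose C, unlike second-dose D, was not low in the positive controls. The TMM scale was 1.80 and 1.96 times the housekeeping scale in second-dose B and D, against 1.02 in A and 0.952 in C, and 1.88, 1.67 and 1.65 in first-dose A to C. The part of these measures in the split was not tested.

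The spread between tumours was wide after the second dose. The median SD of a gene's log2 level was 0.99 over the 4 second-dose tumours, against 0.79 over the 3 first-dose tumours, 0.46 over the day 8 tumours and 0.65 over untreated tumours. The SD was larger after the second dose in 417 of 724 genes. Second-dose levels spanned more than 16-fold in 59 genes (8.15%), against 23 genes (3.18%) after the first dose and 52 genes (7.18%) over the 7 untreated tumours. Among the 394 genes above background in all 7 treated tumours, the shares were 7.36%, 1.78% and, in untreated tumours, 8.38%. A range grows with the number of tumours, and the difference in spread was not tested. By list, the SD was larger after the second dose in 16 of 21 interferon-gamma response genes, 16 of 20 T cell genes, 23 of 30 IL-2 and IL-12 pathway genes and 12 of 15 neutrophil genes, but in 4 of 15 fibroblast and matrix genes.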

How the data were processed

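The deposited raw files give, per the file headers, 1 unnormalized count for each probe and tumour. In the authors' deposited normalized table, signal values were the raw count times 1 factor per tumour (0.898 to 11.6) that followed the housekeeping probes, and second-dose and untreated columns also carried a factor per probe (SD 0.06 log2, 630 probes). The labels name nSolver as the software; its version and settings are not given in the sources used. A table with 17 sample columns that matched no label was not used. RefSeq (UU_Cfam_GSD_1.0) named 777 of 800 endogenous and housekeeping probes.

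Raw counts of all 17 tumours entered 1 edgeR 4.0.16 model (R 4.3.3, robust quasi-likelihood F-test) of 4 groups, with the housekeeping geometric mean as library size. Genes had to pass background in at least 3 tumours, which kept 724 and removed 56. Calls needed a Benjamini-Hochberg adjusted p under 0.05, and SE is the log2 difference over the square root of F. List means use log2(count + 1). P-values rest on a spread between dogs that is pooled over the 4 groups. The median SD of a gene was 0.99 and 0.79 log2 in the second-dose and first-dose groups. It was smaller in the day 8 group (0.46) and the untreated group (0.65), which were not compared. In a fit of the 7 compared tumours alone, 41 genes had a lower value at an unadjusted p under 0.05. The lowest adjusted p in that fit was 0.806.

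The text names up to 15 called genes per direction, or the lowest p values up to 10 (mean at least 50 normalized counts), 46 anchor genes, and the extremes of each of 25 lists. CXCL9 and TIGIT were not tested, and a few items are not reported here. Members, lists and genes were chosen with earlier results of these data known. Alternatives were TMM and median-of-ratios scaling, other filters and housekeeping sets, background subtraction, tumour type, a replicate block, tumours left out, DESeq2 1.42.0, and limma 3.58.1 on the deposited values. The edgeR step was tested on simulated data.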

Additional observations from a re-analysis of the deposited data

Results flagged for a closer look

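Each of the 91 named genes was examined for 1 second-dose tumour standing apart from the other 3, as the gap to its nearest neighbour over the whole range. Chance gives such a tumour in about 1 in 20 groups, and 3 genes had one. For APC, second-dose replicate C had 803 normalized counts, against 569.96, 600.1 and 579 in A, B and D (gap over range 0.850). For PDGFRB, the same tumour had 7367, against 2254, 2518 and 2230.1 (0.898), and first-dose B was higher still at 11632. For FOXP3, second-dose replicate D had 61.5, against 27.8, 29.4 and 29.4 (0.930), a value below that tumour's background of 338.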

How the results depend on the processing

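No gene was called with the main settings, and the number called stayed at 0 in both directions under TMM, median-of-ratios scaling, the reduced housekeeping set, the stricter filter, background subtraction, the 7 tumours alone, nerve sheath tumours alone, and without both shallow libraries. Without the filter 3 genes were called lower (IFNA7, IL32 and LTA), with sarcoma type as a covariate 1 (IL32), by DESeq2 27 and 1 higher, and by limma on the deposited values 1 lower (PAX5). Leaving out each tumour in turn gave 0 to 1 gene called higher and 0 to 27 lower, and at an unadjusted p under 0.05 1 to 18 higher and 31 to 106 lower. Genes without overlap numbered 0 to 31 higher and 44 to 76 lower in the same runs. Unadjusted counts of higher genes, 4 in the main setting, were 32 with TMM, 22 with median-of-ratios, 8 after background subtraction, 10 without both shallow libraries, 13 with DESeq2 and 7 with limma. Those of lower genes, 84 in the main setting, were 52 with TMM, 51 with median-of-ratios and 51 without both shallow libraries. They were 41 in the 7 tumours alone and 14 among the 394 probes above background in all 7, an alternative chosen after seeing the data. They were 63 with the stricter filter, 79 in nerve sheath tumours alone, 81 after background subtraction and 83 with limma. They rose to 119 with the reduced housekeeping set, 101 without the filter, 100 with DESeq2 and 98 with sarcoma type. Genes without overlap were 7 higher and 12 lower with TMM, 2 and 11 with median-of-ratios, 14 and 118 without both shallow libraries, 2 and 105 in nerve sheath tumours alone, 1 higher with the reduced housekeeping set and after background subtraction, and 9 lower among probes above background in all 7. Fewer genes, tumours or probes entered several of these, and the cause was otherwise not tested.

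Of 1860 values of 91 named genes under the alternatives, 1674 kept direction and side of the threshold, 37 became called, 146 changed sign without reaching an unadjusted p under 0.05 in either setting, and 3 turned round. FOXP3 ran from -1.87 to 0.0013 log2 over the tumours left out, and KLRK1 from -1.30 to 0.86, and was 0.89 without both shallow libraries. Replicate letters do not pair tumours, which came from different dogs: same-letter deviations correlated at -0.05, -0.02 and 0.21. With the replicate block 0 genes were called, and 4 higher and 91 lower genes had an unadjusted p under 0.05. Depth limits second-dose D most, where 416 of 780 endogenous probes passed background.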
